A study of Homo sapiens with 4 samples.

Results

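H3K4me3 intervals present in both RS4;11 and THP-1 cells are described here. Trimethylation of lysine 4 on histone H3 (H3K4me3) is laid down by methyltransferase complexes that contain WDR5, and it marks the start of genes that are transcribed or poised for transcription. In mammalian genomes most such starts lie in CpG islands, where the dinucleotide CG is frequent. The mark often spreads from the start into the transcribed region, and genes of cell identity tend to carry wide domains of it.

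The members were chosen by the positions of the called intervals: each distinct RS4;11 H3K4me3 interval that shared at least 1 base with a THP-1 H3K4me3 interval was kept, and the THP-1 interval with the largest overlap was taken as its partner. This gave 13516 shared intervals among the 24212 of RS4;11, or 55.8%, and they overlapped 13744 of the 26523 THP-1 intervals. The series holds 51663 distinct intervals in its 4 files. Since overlap and width are both read from the interval positions, the overlap itself is the rule and not a result.

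The study mapped H3K4me3 and WDR5 by ChIP-seq in 2 leukemia cell lines, with 1 sample for each antibody and line and 4 in all. RS4;11 is a B-cell precursor acute lymphoblastic leukemia line and THP-1 is a monocytic acute myeloid leukemia line, and the paper describes both as carrying a rearranged MLL gene. Both were grown untreated in RPMI1640 with fetal bovine serum, the H3K4me3 antibody was ab8580, and the WDR5 antibody was ab56919. The label of the RS4;11 H3K4me3 sample gives a myeloid cell type and that of the THP-1 WDR5 sample a lymphoblastic one, so the samples were grouped by the named line. Each line was sampled once, so the comparisons below have no replicate error and no test, and the intervals given with shares cover counting error over intervals only. The files hold positions but no read counts or heights, so the depth is unknown, and a width depends on depth and on the caller's threshold as well as on the mark.

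Lineage markers were checked first. Of 11 B-lineage marker genes, 4 had an H3K4me3 interval over an exon in RS4;11 and 6 in THP-1. Of 13 myeloid marker genes, 6 had one in RS4;11 and 8 in THP-1. CD79A, a chain of the B-cell receptor, had an exon interval in RS4;11 alone, and CSF1R, CSF3R, FCGR1A and ELANE, which are myeloid receptors and a granule protease, in THP-1 alone. Other defining genes went against the lines: PAX5 and EBF1, regulators of B-cell identity, were listed in THP-1 alone, and SPI1 and CEBPE, regulators of myeloid differentiation, in RS4;11 alone. No interval was wider than 4478 bp in RS4;11 or 4446 bp in THP-1. Genes of every cell, such as ACTB and GAPDH, and MYB, RUNX1 and HOXA9 had no exon interval in either file. The members and their ratios therefore describe the listed intervals only, an unlisted gene is not shown to lack the mark, and how the upper limit of width arose was not tested.

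A few genes with their start inside both partners are shown, because their widths stand for the 3 kinds of pair described below. RBM22, a splicing factor gene, and LDHA, the lactate dehydrogenase A gene, had intervals of nearly equal width. SPIB and IRF4, transcription factors of B cells, had the wider interval in RS4;11, and FCER1G, which encodes the signaling chain of Fc receptors, in THP-1. The 150 bases before the GENCODE gene start are given from 5′ to 3′ on the strand of the gene, in the GRCh37 assembly, which has the coordinates of hg19. Capitals mark each CG.
RBM22 (chr5:150080640-150080789, minus strand): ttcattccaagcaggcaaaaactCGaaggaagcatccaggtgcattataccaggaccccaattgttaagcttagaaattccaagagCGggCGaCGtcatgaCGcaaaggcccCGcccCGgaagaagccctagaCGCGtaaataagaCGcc
LDHA (chr11:18415957-18416106, plus strand): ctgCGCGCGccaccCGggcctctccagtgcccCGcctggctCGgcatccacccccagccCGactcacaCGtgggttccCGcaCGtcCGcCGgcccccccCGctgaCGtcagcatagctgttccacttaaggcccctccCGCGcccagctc
SPIB (chr19:50922045-50922194, plus strand): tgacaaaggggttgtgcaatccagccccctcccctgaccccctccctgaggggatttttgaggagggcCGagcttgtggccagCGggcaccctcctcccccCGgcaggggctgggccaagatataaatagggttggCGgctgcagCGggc
IRF4 (chr6:391589-391738, plus strand): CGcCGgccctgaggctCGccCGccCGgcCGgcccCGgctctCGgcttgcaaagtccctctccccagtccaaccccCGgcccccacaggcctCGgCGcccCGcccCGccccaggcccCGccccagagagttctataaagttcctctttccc
FCER1G (chr1:161184874-161185023, plus strand): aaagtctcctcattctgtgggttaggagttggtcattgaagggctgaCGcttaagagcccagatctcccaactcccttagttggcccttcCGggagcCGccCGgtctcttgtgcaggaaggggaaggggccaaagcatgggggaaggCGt
The windows held 10 CG for RBM22, 16 for LDHA, 5 for SPIB, 14 for IRF4 and 5 for FCER1G. Among all protein-coding genes, 93.1% of such windows held at least 1 CG, with a median of 9. The windows of genes linked to a shared pair had a median of 12, and 97.0% held at least 1. CG reads the same on both strands, so 1 count serves for both.

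Shared intervals were wider than those found in a single line. Their median width was 2091 bp in RS4;11 (25th to 75th percentile 1246 to 2783 bp), against 896 bp (635 to 1341 bp) for the 10696 intervals without a partner. In THP-1 the medians were 1923 bp for shared intervals and 863 bp for the 12779 others. The share with a partner was 24.6% (95% Wilson interval 22.7 to 26.6) for RS4;11 intervals under 500 bp and 88.7% (87.4 to 89.9) for those from 2500 up to 3000 bp. It was lower again among the widest, at 66.9% (62.5 to 71.0) for RS4;11 intervals of 4000 bp or more and 72.6% (67.0 to 77.5) for THP-1 ones. Of the 154 intervals of that width in the former line without a partner, 81.2% covered the start of a GENCODE protein-coding gene. A wider interval has more bases that can be shared, and how much of the trend this gives was not tested. The files list no interval wider than 4478 bp in RS4;11 or 4446 bp in THP-1, so a partner beyond these widths would be missed. How much of the lower share among the widest this gives was not tested either.

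**Figure D1:**
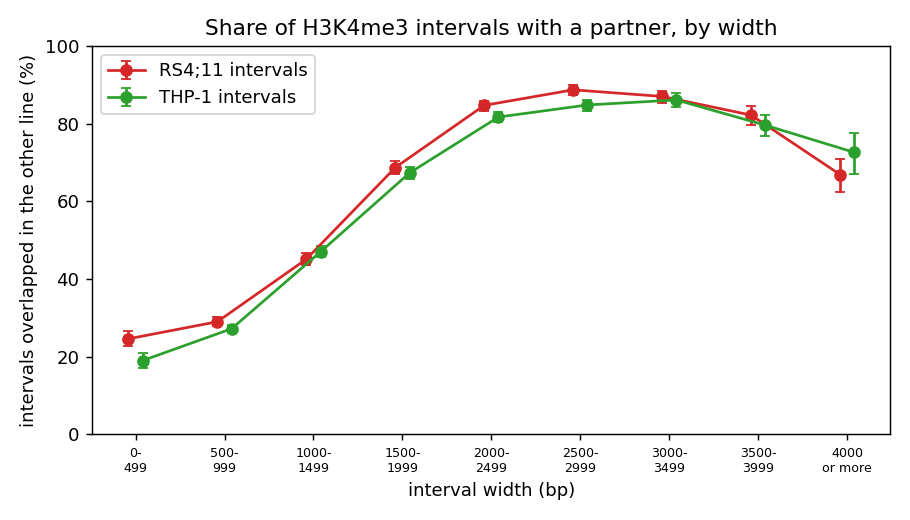
The percentage of H3K4me3 intervals that overlap an interval of the other line (vertical axis) is plotted by interval width in bp (horizontal axis) for RS4;11 (red) and THP-1 (green), with 95% Wilson intervals. The lowest shares, 24.6% and 19.0%, stand under 500 bp, the highest are 88.7% and 86.1%, and the widest band has 66.9% and 72.6%.

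The shared intervals were mostly at gene starts. The files flag, for each transcript, whether an interval lies in an exon and whether it lies up to 20 kb upstream, and an interval with both flags for 1 transcript crosses its 5′ end, called a start flag here. This flag was set for 60.8% (60.0 to 61.6) of the shared RS4;11 intervals and for 8.61% (8.09 to 9.16) of the others. For THP-1 the values were 56.7% (55.9 to 57.6) and 17.2% (16.6 to 17.9). An exon was covered by 67.0% of the shared and 21.0% of the other RS4;11 intervals. In the opposite direction, 16.4% of the shared and 55.0% of the other intervals lay in introns without touching an exon. By an annotation the authors did not use, 52.6% (51.7 to 53.4) of the shared RS4;11 intervals covered the start of a GENCODE protein-coding gene, against 7.10% (6.62 to 7.60) of the others. Since shared intervals are wider, part of this difference goes with width. Within the band of 2000 to 2499 bp, 69.5% of shared and 14.5% of other RS4;11 intervals covered such a GENCODE start. The contrast was smaller in THP-1, with 70.3% of shared and 46.1% of other intervals in that band. At 4000 bp or more the values were 84.6% and 81.2% in RS4;11 and 87.6% and 85.5% in THP-1.

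CpG content differed between the shared and the other intervals as well. In a window of 500 bp at the interval center, the shared RS4;11 intervals had a median of 5.60 CG per 100 bp and the others 1.20. The GC content of the same windows was 60.2% and 47.0%. In THP-1 the medians were 5.20 and 1.60 CG per 100 bp. Among RS4;11 intervals that covered a gene start, shared and other intervals were closer, at 7.60 and 6.60 CG per 100 bp. Away from gene starts the medians were 2.80 for shared and 1.20 for other intervals.

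By the limit of 0.8 given below, partners had similar widths in most pairs, and their centers lay close together. The width in RS4;11 divided by that in THP-1 had a median of 1.02, a 5th to 95th percentile of 0.51 to 2.22, and a range of 0.11 to 11.11. Across pairs the widths had a Spearman correlation of 0.73 over 13516 pairs, as a description, since neighboring pairs share their library and the intervals their caller. The smaller interval lay wholly inside the larger in 57.7% of pairs, and the centers were a median of 134 bp apart. A pair was called similar where the narrower interval had at least 0.8 of the width of the wider, and 7583 of 13516 pairs, or 56.1%, were so. Their edges differed by a median of 125 bp on the left and 121 bp on the right. At least 2-fold wider in RS4;11 were 907 pairs (6.71%), with median widths of 2395 bp in RS4;11 and 848 bp in THP-1. At least 2-fold wider in THP-1 were 642 pairs (4.75%), with medians of 626 bp in RS4;11 and 1778 bp in THP-1. The others were wider by a smaller factor, 2443 in RS4;11 and 1941 in THP-1. The 2-fold counts depended in part on how divided intervals were treated. Among pairs in which each interval overlapped only the other, 789 were at least 2-fold wider in RS4;11 and 594 in THP-1. With the widths of all overlapping THP-1 intervals summed, the counts were 796 and 646.

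**Figure D2:**
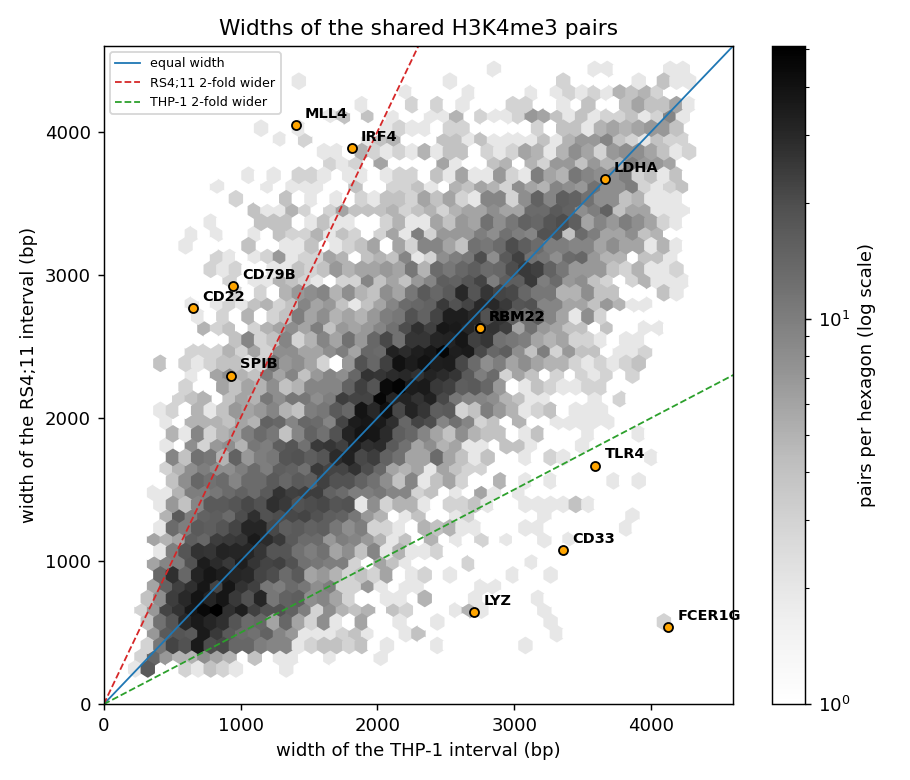
Each hexagon counts shared pairs (log gray scale) by the width in bp of the THP-1 interval (horizontal axis) and of the RS4;11 interval (vertical axis), with the line of equal width and the limits of a 2-fold difference, and orange points mark named genes. The 13516 pairs gather along the line of equal width and no interval is wider than 4478 bp. CD22, CD79B, SPIB, IRF4 and MLL4 lie above the upper limit, and TLR4, CD33, LYZ and FCER1G below the lower one.

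Values just at the limits were as follows. The pair with the fewest shared bases, at STAG2, shared 1 base of intervals 4357 and 1407 bp wide. At BLNK, which encodes a B-cell linker protein, intervals of 1704 bp in RS4;11 and 1706 bp in THP-1 lay 7 bp apart and were not counted. In all, 28 pairs shared 100 bases or fewer, and 32 intervals without a partner lay within 100 bp of a THP-1 interval. Near the 2-fold limit in RS4;11, 179 pairs had ratios between 1.9 and 2 and 113 between 2 and 2.1.

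Genes were linked to a pair where both intervals were flagged over an exon of the gene, and 9292 genes were linked, or 50.2% of the 18494 genes named in either file. These were 83.4% of the genes with an exon interval in RS4;11 and 75.5% of those in THP-1. Among them 6402 (68.9%) were of similar width, 316 (3.40%) at least 2-fold wider in RS4;11 and 226 (2.43%) at least 2-fold wider in THP-1. These 3 shares are the background for the gene groups that follow. A group far from them is described as it stands, with no test.

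Genes of basic cell functions mostly had similar widths where they were linked. Where 2 widths follow a gene with no line named, the first is that of RS4;11 and the second that of THP-1. All 22 linked genes of the spliceosome core, the machinery that removes introns, were similar, with ratios of 0.82 to 1.18 and a median of 0.98. SNRNP200, a helicase of the U5 particle, had intervals of 2418 bp in both lines. SNRPA1, a protein of the U2 particle, had 3574 and 3579 bp. Each of the 22 genes had the start flag in both lines. Of the others in this list of 32, 6 had an exon interval in RS4;11 alone, 1 in THP-1 alone, 1 in both lines without a pair and 2 in neither. The proteasome, which degrades ubiquitin-tagged proteins, had 27 linked genes of 31, of which 23 were similar and the median ratio was 0.94. The exceptions were PSMD12 (2425 and 3517 bp), PSMC3 (2114 and 2955 bp) and PSMA2 (3409 and 4276 bp), wider in THP-1, and PSMA7 (3846 and 2327 bp), wider in RS4;11, each by less than 2-fold. In this group 19 genes were wider in THP-1 by any amount and 8 in RS4;11.

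Cell cycle genes followed the same course, with 14 of 16 linked genes similar and a median of 1.00. PLK1, a mitotic kinase, had 2783 bp in RS4;11 and 2782 bp in THP-1, and CDK4, a kinase of the G1 phase, 2475 and 2479 bp. The exceptions were CCND1 and CCND2, D-type cyclins and partners of CDK4, while CCND3 had no exon interval in either line. CCND1 had 1770 and 3480 bp, a ratio of 0.51, and CCND2 844 and 1117 bp. The CCND1 interval had the start flag in THP-1 alone, and neither CCND2 interval had it. Of the others in this list of 34, 2 had an exon interval in RS4;11 alone, 6 in THP-1 alone, 1 in both lines without a pair and 9 in neither. All 6 linked housekeeping genes of a list of 18 were similar, HPRT1 with 2329 and 2318 bp and LDHA with 3669 and 3660 bp, while 10 of the list had no exon interval in either line.

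Among pairs of equal width (a ratio within 0.05 of 1), the 10 widest linked pairs ran from 4150 to 4441 bp in RS4;11. They included GSK3A (4214 bp in RS4;11, 4223 bp in THP-1), a kinase of glycogen and Wnt signaling, and MAP3K7 (4314 and 4173 bp), a kinase of inflammatory signaling. NSMAF, NAA38, ECHDC1 and PTK2B were also among them. Another 4 of the 10 covered a pair of genes that start close together: C2CD3 with PPME1, EEF1B2 with NDUFS1, CDC45 with UFD1L, and LMBRD2 with SKP2. At CDC45, a replication factor gene, and UFD1L the interval was 4226 bp in RS4;11 and 4195 bp in THP-1.

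Most linked genes of B-cell regulation had the wider interval in RS4;11, 5 of 6 by any amount. At least 2-fold wider there were 2 (background 3.40%), none at least 2-fold wider in THP-1, and the median ratio was 1.61. SPIB had 2296 bp in RS4;11 and 931 bp in THP-1, a ratio of 2.47, and IRF4 had 3887 and 1812 bp, a ratio of 2.15. AFF3, a nuclear factor of lymphoid cells, had 3364 and 1870 bp, and BACH2, a repressor of plasma cell differentiation, 3820 and 2691 bp. IKZF3, a zinc finger factor of lymphocytes, went the other way with 1531 and 2103 bp. POU2F2 was similar, with 810 and 723 bp. The other 9 regulators did not share this direction. An exon interval was listed in THP-1 alone for 5 of them: PAX5 (4037 bp), LEF1 (2859 bp), EBF1 (2472 bp), FOXO1 (2171 bp) and ERG (1928 bp). It was listed in RS4;11 alone for 1 (POU2AF1, 3337 bp) and in neither line for 3.

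The B-cell receptor and surface genes had 8 linked members with a median ratio of 1.46. The largest ratio was at CD22, an inhibitory receptor of B cells, with 2769 bp in RS4;11 and 653 bp in THP-1, a ratio of 4.24. CD79B, a signaling chain of the B-cell receptor, had 2921 and 946 bp (3.09), and TNFRSF13C, the receptor for the survival factor BAFF, 1910 and 695 bp (2.75). These 3 were the members at least 2-fold wider there, and the THP-1 interval had the start flag at CD22 but not at CD79B or TNFRSF13C. BTK, a kinase of B-cell receptor signaling, had 4071 and 2784 bp, and PLCG2, a phospholipase of the same pathway, 2195 and 1509 bp. VAV1, CD37 and CD24 were similar, with ratios of 0.83, 0.85 and 0.84. The CD24 pair was listed on chromosome Y, and CD24 has near-identical copies, so its reads are uncertain. Of the other members of this list of 24, 6 had an exon interval in THP-1 alone (CD72, CD74, RAG2, BLNK, SYK and CR2). A further 2 had one in RS4;11 alone (CD79A and FCRLA), 2 in both lines without a pair and 6 in neither line.

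**Figure D3:**
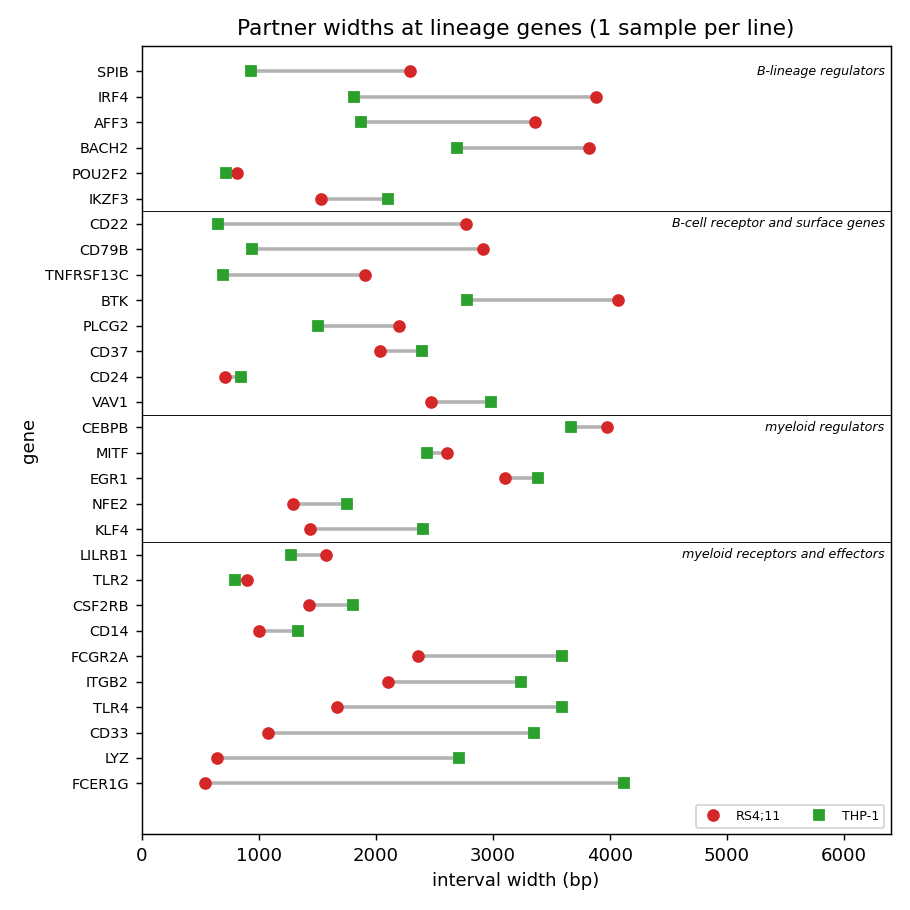
The width in bp (horizontal axis) of the RS4;11 interval (red circle) and of its THP-1 partner (green square) is plotted for each linked gene of 4 lineage lists, ordered by ratio within a list. At the top of the B-cell lists the RS4;11 interval is the wider, as at CD22 with 2769 against 653 bp, and at the bottom of the myeloid receptor list the THP-1 interval is, as at FCER1G with 4125 against 539 bp.

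Myeloid receptor and effector genes had the wider interval in THP-1 at 8 of 10 linked genes. Of these, 4 were at least 2-fold wider in THP-1 (background 2.43%), none at least 2-fold wider in the other line, and the median ratio was 0.65. FCER1G had 539 bp in RS4;11 and 4125 bp in THP-1, where the interval was 7.65-fold wider, and LYZ, which encodes lysozyme, had 645 and 2709 bp (4.20-fold). CD33, an inhibitory receptor of myeloid cells, had 1075 and 3357 bp (3.12-fold), and TLR4, the receptor for endotoxin, 1667 and 3594 bp (2.16-fold). All 4 had the start flag in both lines. ITGB2, the beta chain of leukocyte integrins, had 2106 and 3238 bp, FCGR2A, an Fc receptor, 2358 and 3590 bp, and CD14, the coreceptor for endotoxin, 1004 and 1335 bp. LILRB1 and TLR2 were similar, with ratios of 1.23 and 1.14. A further 12 genes of this list of 30 had an exon interval in THP-1 alone and 2 in RS4;11 alone.

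The 5 linked myeloid regulators had a median ratio of 0.92, 3 of them were below 1, and none was 2-fold wider in either line. CEBPB, a regulator of inflammatory genes, had 3981 bp in RS4;11 and 3666 bp in THP-1, and EGR1, an immediate early factor, 3109 and 3389 bp. KLF4, a factor of monocyte differentiation, had 1435 and 2402 bp, a ratio of 0.60, and NFE2, a factor of erythroid and megakaryocytic cells, 1290 and 1754 bp, a ratio of 0.74. Of this list of 20, 9 genes had an exon interval in RS4;11 alone and 2 in THP-1 alone.

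Of 30 genes known as targets of MLL fusion proteins, 1 was linked (background 50.2%). This was CCNA1, a cyclin gene, with 2779 bp in RS4;11 and 2623 bp in THP-1. Of the others, 9 had an exon interval in THP-1 alone, 3 in RS4;11 alone and 17 in neither line. HOXA5 (2846 bp), MEIS1 (2050 bp) and FLT3 (1949 bp), genes of hematopoietic progenitors, were listed in THP-1 alone, and LMO2 (4150 bp) in RS4;11 alone.

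Several enzymes of the mark were themselves among the members. Of 15 linked genes of H3K4 methyltransferase complexes, 6 were similar, 2 at least 2-fold wider in RS4;11 and 12 above a ratio of 1, with a median of 1.29. MLL4, a methyltransferase gene on chromosome 19, had 4047 bp in RS4;11 and 1403 bp in THP-1, and its start lay in the RS4;11 interval alone. MEN1, which encodes a cofactor of MLL, had 2574 and 1117 bp, but neither interval had the start flag. WDR5 itself had 3300 and 1769 bp, both over the start. RBBP5 (2811 and 2801 bp) and DPY30 (2010 and 2116 bp), which encode subunits of the same complexes as WDR5, were similar. In the group 8 genes had the start flag in both lines. MLL2, MLL3, SETD1B, CXXC1 and MEN1 had it in neither line, so their ratios do not describe an interval over their own start. Of the genes that were not linked, HCFC1 and PAXIP1 had an exon interval in RS4;11 alone, MLL in THP-1 alone, and MLL5, KDM6A and OGT in neither. Of the demethylases, 3 of 4 linked genes were similar and KDM5B was wider in THP-1 (2926 and 4093 bp).

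The largest differences were also ranked over all linked genes with a single partner. In favor of RS4;11 the 10 largest ratios ran from 4.86 to 7.63. TSPAN14, a tetraspanin gene, had 2854 bp in RS4;11 and 374 bp in THP-1, in intervals that had no start flag. C1orf187 and MAD2L2, the latter a subunit of a translesion DNA polymerase, shared an interval of 4019 and 670 bp that held both gene starts. SIT1, an adaptor of lymphocyte receptors, had 3181 and 613 bp, and GP9, a platelet glycoprotein, 3670 and 710 bp. SCARF1, LPAR5, EPHB4, ACCN1, TMEM71 and PKIG made up the others.

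In favor of THP-1 the 10 largest inverse ratios ran from 4.70 to 7.65 and were led by FCER1G. ANKRD35 had 422 bp in RS4;11 and 2715 bp in THP-1, and LIMS1, an adaptor of focal adhesions, 449 and 2801 bp. EPHB1, an ephrin receptor gene, had 386 and 2345 bp over the same gene start, and CLSTN2, a calsyntenin gene, 570 and 3234 bp. TIFAB, an inhibitor related to TRAF signaling, had 591 and 3051 bp. SRRM3, LMO1, RNF144B and AGRN were the others. Of these 10 genes, FCER1G alone belonged to a list above.

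Where a pair covered exactly 1 gene start and the same in both lines, its reach to each side could be measured, and 5399 pairs allowed this. In pairs of similar width the RS4;11 interval reached a median of 842 bp upstream and 1602 bp downstream of the start, and the THP-1 interval 821 and 1606 bp. In the 127 pairs at least 2-fold wider in RS4;11, the RS4;11 interval reached 858 bp upstream and 1963 bp downstream, against 491 and 616 bp in THP-1. In the 114 pairs at least 2-fold wider in THP-1, the THP-1 interval reached 714 bp upstream and 1718 bp downstream, against 354 and 497 bp in RS4;11. The downstream edge differed by more bases than the upstream edge in 83.5% of the first set and 87.7% of the second, compared with 56.6% of the 3852 similar pairs. Both intervals had to cover the start, so an edge could differ by at most the longer reach on its side. Median reach was longer downstream, so the choice of pairs favors a larger difference there. How much of the contrast this gives was not tested. The median difference downstream was 1416 bp in favor of RS4;11 in the first set, with 252 bp upstream. FCER1G followed this course: its start at 161185024 on chromosome 1 lay inside both intervals, which ended at 161185345 in RS4;11 and at 161188264 in THP-1.

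**Figure D4:**
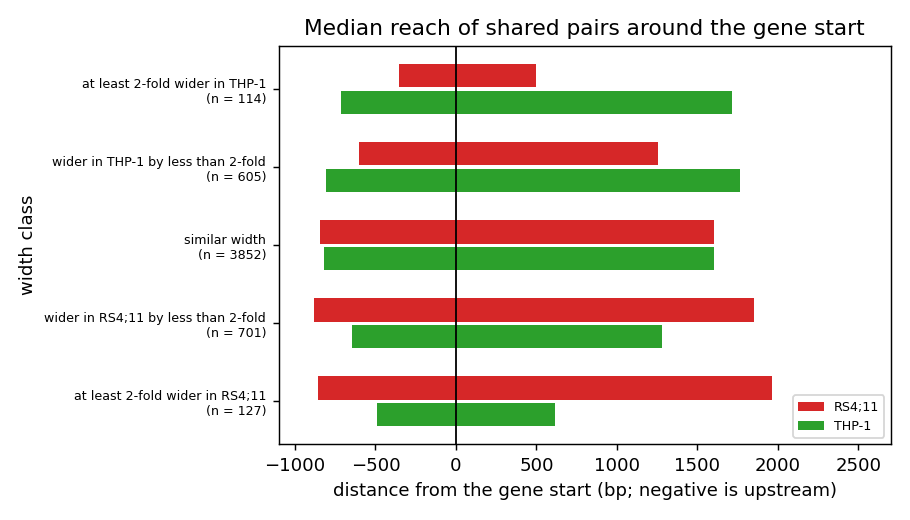
Bars span the median reach of the RS4;11 (red) and THP-1 (green) interval upstream (negative) and downstream of the gene start in bp (horizontal axis) for each width class (vertical axis, with the number of pairs). In the class at least 2-fold wider in RS4;11 the bars end at 1963 and 616 bp downstream, and in similar pairs at 1602 and 1606 bp.

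The width classes differed in how often they covered a gene start. Among similar pairs 72.5% of RS4;11 intervals had the start flag, as did 71.7% of their THP-1 partners. In pairs at least 2-fold wider in RS4;11 the flag was set for 44.9% of RS4;11 intervals and 19.2% of THP-1 intervals. In pairs at least 2-fold wider in THP-1 it was set for 25.7% in RS4;11 and 38.5% in THP-1. The share of similar pairs was 43.3% for RS4;11 intervals without a GENCODE gene start, 66.0% with 1 start, 75.9% with 2 and 82.6% of the 86 intervals with 3 or more. Median widths were larger with more starts in both lines, from 1302 bp in RS4;11 and 1252 bp in THP-1 without a start to 3054 and 3218 bp with 3 or more.

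CpG content at the RS4;11 center was a median of 6.60 CG per 100 bp in similar pairs, 2.80 in pairs at least 2-fold wider in RS4;11 and 3.20 in pairs at least 2-fold wider in THP-1. The first of the unequal classes spread widely, with a 25th to 75th percentile of 1.20 to 10.4. Among the 6520 pairs over a gene start in both lines the order was not the same. There the medians were 7.40 in the 4717 similar pairs, 9.40 in the 155 pairs at least 2-fold wider in RS4;11, and 7.60 in the 125 at least 2-fold wider in THP-1. The lower medians of the unequal classes stood beside a smaller share of gene starts, and what each contributed was not tested. In the 150 bases before the start of the linked genes, the median number of CG was 12 for similar genes, 12 for genes at least 2-fold wider in RS4;11 and 9 for those at least 2-fold wider in THP-1. Windows with 3 or fewer CG made up 12.7% of the first, 20.8% of the second and 30.2% of the third group, and 28.1% of all protein-coding genes.

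**Figure D5:**
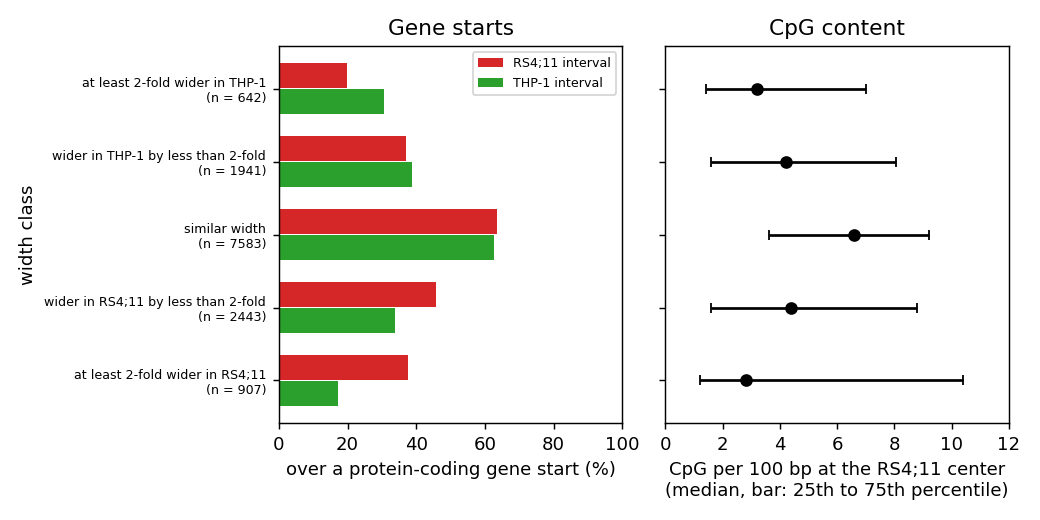
The left panel plots, for each width class, the percentage of RS4;11 (red) and THP-1 (green) intervals over a GENCODE protein-coding gene start, and the right panel the CG per 100 bp at the RS4;11 center (median with 25th to 75th percentile). Similar pairs have the highest values in both panels, with 63.4% and 62.5% over a start and 6.60 CG per 100 bp.

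WDR5 intervals were rare among the members. Of the shared RS4;11 intervals 42, or 0.311% (0.230 to 0.420), overlapped a WDR5 interval of the same line, against 16, or 0.150% (0.0921 to 0.243), of the others. The shared intervals covered 28.0 Mb and the others 12.3 Mb, and per Mb the shared ones held 1.15 times as many as the others. In THP-1 19 shared intervals did so (0.138%), against 8 of the others (0.0626%), and per Mb the shared ones held 1.24 times as many. Of all WDR5 intervals, 5.97% of the 703 in RS4;11 and 8.44% of the 225 in THP-1 lay on shared H3K4me3.

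In all, 56 pairs held a WDR5 interval, 37 in RS4;11 alone, 14 in THP-1 alone and 5 in both. Of these 38 (67.9%) were of similar width, compared with 56.1% of all pairs, 3 were at least 2-fold wider in RS4;11 and none at least 2-fold wider in THP-1. By summed width of both partners, the widest were at MCM3, a subunit of the replicative helicase (4237 bp in RS4;11 and 3860 bp in THP-1), and HIST1H1C, a linker histone gene (4142 and 3677 bp), both with WDR5 in RS4;11 alone. At RPL35A, a ribosomal protein gene whose interval also covered IQCG (3236 and 3884 bp), and at RNF122 (3052 and 3097 bp) WDR5 was listed in THP-1 alone. CCBL2 with RBMXL1, ASB7 with LINS1, ZNF700, TLR6, RBMS3 and MRP63 with SKA3 completed the 10 widest, all with WDR5 in RS4;11 alone.

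Of 6 genes that the study examined by quantitative ChIP, 4 were linked. RAB28, a small GTPase gene, had 2710 bp in RS4;11 and 3230 bp in THP-1, and MED24, a Mediator subunit gene, 1969 and 1979 bp. RBM22 had 2626 and 2747 bp. LYN, a kinase of B-cell and myeloid receptors, had 3847 and 2887 bp, a ratio of 1.33. RAB28, MED24 and RBM22 each held a WDR5 interval in RS4;11 alone. CD93 was listed in RS4;11 alone (2703 bp), and the intervals at BCL9 (2801 and 792 bp) were not partners.

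A small number of members were divided in 1 line. In 265 cases an RS4;11 interval lay over 2 THP-1 intervals, and in 37 a THP-1 interval lay over 2 RS4;11 intervals. The gap between the pieces had a median of 130 bp in THP-1 and 106 bp in RS4;11. The widest divided RS4;11 interval, at C20orf111, was 4183 bp and had THP-1 pieces of 2279 and 897 bp with a gap of 102 bp. At JUND, an AP-1 factor gene, 3977 bp in RS4;11 lay over pieces of 2125 and 1145 bp, 1193 bp apart. At PGAM1, a glycolytic enzyme gene, 3991 bp in THP-1 lay over RS4;11 pieces of 1073 and 2967 bp. The start flag was set for 219 of the 265 and for 23 of the 37.

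By chromosome, the share of RS4;11 intervals with a partner ran from 47.3% (43.0 to 51.7) on chromosome 13 to 70.3% (67.9 to 72.7) on chromosome 19. The median width ratio ran from 0.97 on chromosome 1 to 1.08 on chromosome X. Of the members, 13507 lay on the assembled chromosomes and 9 on other sequences.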

How the data were processed

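Interval files of H3K4me3 and WDR5 ChIP-seq were used for both lines, with 1 sample per group. Per the methods, chromatin was cut with micrococcal nuclease for H3K4me3 (the labels describe sonication) and sonicated for WDR5. The authors aligned reads to hg19 with Eland (up to 2 mismatches, uniquely placed reads), ran MACS with its defaults and joined the peaks to RefSeq transcripts within 20 kb. The MACS version and any input control are not given in the sources used here. The submitters' processing notes name CASAVA 1.7 and 1.8.2. The deposited files hold interval positions and yes or no flags, with no counts, scores or p-values, so intervals beyond 20 kb of a transcript and the depth were not analysed here.

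Lines were reduced to distinct intervals. Members, lists and classes were chosen with earlier results of these data known. Starts came from GENCODE release 44 on GRCh37. Of all H3K4me3 intervals, 72 lay off the assembled chromosomes and were left out where sequence was read. Named genes were the 10 largest ratios each way and the 10 widest of equal width among linked pairs with single partners and at least 1000 bp in the wider interval, list members, the qChIP genes and the 10 widest pairs with WDR5. A gene with several pairs took that of largest summed width. Wilson intervals are at 95%. Pairing was tested on simulated intervals. Python 3.11.15, numpy 2.4.6, scipy 1.17.1, pysam 0.24.0 and matplotlib 3.10.9 were used.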

Additional observations from a re-analysis of the deposited data

How the results depend on the processing

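Of 28 alternative values, 21 stayed within 1.5 times the count, or within the counting interval of the share or median, that the report gives. The other 7 moved outside it. The number of shared intervals was 13414 when 50% of the smaller interval had to be covered, 11674 when 50% of both had to be, and 13507 on assembled chromosomes only. With a fold of 1.5 the pairs wider in RS4;11 were 2055 and those wider in THP-1 1464. With at least 0.9 of the width of the wider interval the similar pairs were 4524. The share over a protein-coding start was 64.1% with the start of every transcript and 56.0% within 1000 bp. The exon flag was set for 65.8% of the THP-1 partners. CG per 100 bp was 4.01 over the whole interval, which reaches past the center. No paired analysis was possible because each group has 1 sample and no result comes from a test. Depth is unknown, peak strength could not be used as a filter, and with 1 sample per line a difference between lines cannot be told apart from one between libraries.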

Other observations

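Shared intervals away from exons were narrower in their medians than those over exons. In 2137 pairs (15.8%) both intervals lay in introns without touching an exon, with median widths of 1068 bp in RS4;11 and 971 bp in THP-1 and 1.40 CG per 100 bp. Of these, 34.7% were of similar width, 11.9% at least 2-fold wider in RS4;11 and 6.93% at least 2-fold wider in THP-1. Of the 8739 pairs over an exon in both lines, 66.4% were similar, 4.03% at least 2-fold wider in RS4;11 and 2.72% at least 2-fold wider in THP-1, with median widths of 2465 and 2377 bp. The largest ratio of all pairs was in an intron of FMNL2, a formin gene, with 2966 bp in RS4;11 and 267 bp in THP-1. FRMD4B had 4240 and 584 bp, and UBASH3B, which encodes a phosphatase of receptor signaling, 3029 and 498 bp. In the other direction an intron of PDE4D, a cyclic AMP phosphodiesterase gene, had 567 bp in RS4;11 and 3475 bp in THP-1. Wide intron pairs of similar width were found in FURIN, a proprotein convertase gene (3448 and 3691 bp), and TAOK3 (3637 and 3390 bp).

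In 2174 pairs (16.1%) both intervals lay outside every listed transcript, with 45.2% of similar width and 3.40 CG per 100 bp. Between EGR1 and REEP2 an interval was 2831 bp wide in RS4;11 and 364 bp in THP-1, while the interval over EGR1 itself was similar in both (3109 and 3389 bp). Near MIR125A, MIR99B and MIRLET7E, a cluster of hematopoietic microRNAs on chromosome 19, the interval was 531 bp in RS4;11 and 3401 bp in THP-1, where it was 6.40-fold wider.

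The 5 pairs with a WDR5 interval in both lines were narrow, from 278 to 972 bp, and had no exon flag. They lay near MIR1977 (in 2 pairs on chromosome 1), near NBR1 and TMEM106A (1 pair), and near ROCK1 and SENP5 (1 pair each). In RS4;11 the WDR5 interval overlapped most of the H3K4me3 interval in each of them. Whether the signal at these places depends on the antibody was not tested. These pairs were singled out after their values were seen.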
